A study of Mus musculus with 5 samples.

Results

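Of the 2071 genomic regions bound by NEUROD2 with all 3 antibodies in newborn mouse cortex, 744 carried the location intergenic in the deposited table, and these 744 regions were the members described here. They made up 35.9% of the shared sites (95% Wilson interval 33.9 to 38.0%), beside 706 in introns, 522 at promoters and 98 in exons, and 1 row held no location. The tissue was cerebral cortex of BALB/c mice at postnatal day 0, pooled from untreated littermate pups of either sex, so no value belongs to 1 animal and the cell types of the cortex were not separated. Chromatin was precipitated with 1 of 3 NEUROD2 antibodies, ab168932 (antibody 1), ab104430 (antibody 2) or ab109406 (antibody 3), with 1 library for each. A library made with an antibody against GFP was the control for peak calling, and an input library was not used here. The antibodies are the only repeats of the measurement, and the spread between them may be technical.

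NEUROD2 is a basic helix-loop-helix transcription factor of neurons that binds DNA as a dimer with a broadly expressed partner. The dimer reads a short motif called the E-box, CANNTG, in which the central pair of bases varies between factors. Binding far from promoters is typical of developmental factors of this family and often lies in enhancers, the distal elements that act on promoters from a distance. At intergenic sites of this set, however, the paper found little overlap with histone marks of enhancers or active transcription in newborn forebrain. The gene next to a bound region is a positional label, since an enhancer can act past its neighbour.

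The central 200 bp of 8 regions are shown on the plus strand of GRCm38 (mm10), read from the RefSeq copy of that build, which is the C57BL/6J reference and not the BALB/c genome of the pups. Every CANNTG is in capitals. An E-box read on the opposite strand keeps the form CANNTG, so CATCTG is CAGATG read from the other strand, and the 10 distinct forms are counted with their reverse complements. The first 4 are the highest scoring intergenic regions, and each holds only 2 or 3 E-boxes in this window.
Between 1500009L16Rik and Nuak1, chr10:84358192-84358391, plus strand: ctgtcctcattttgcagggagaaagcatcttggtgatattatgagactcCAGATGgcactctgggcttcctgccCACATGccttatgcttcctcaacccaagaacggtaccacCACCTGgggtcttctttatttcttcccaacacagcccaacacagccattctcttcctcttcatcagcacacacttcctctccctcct
Between Klhl29 and Apob, chr12:6638971-6639170, plus strand: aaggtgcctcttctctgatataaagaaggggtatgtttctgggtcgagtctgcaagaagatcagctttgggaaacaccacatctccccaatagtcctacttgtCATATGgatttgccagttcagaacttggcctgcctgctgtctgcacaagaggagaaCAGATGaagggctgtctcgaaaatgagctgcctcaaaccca
Between Paqr3 and Naa11, chr5:97301037-97301236, plus strand: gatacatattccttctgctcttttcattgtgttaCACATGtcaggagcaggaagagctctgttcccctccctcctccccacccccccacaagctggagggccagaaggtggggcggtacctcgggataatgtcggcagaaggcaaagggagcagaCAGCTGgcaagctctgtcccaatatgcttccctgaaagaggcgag
Between Tnfaip3 and Olig3, chr10:19277232-19277431, plus strand: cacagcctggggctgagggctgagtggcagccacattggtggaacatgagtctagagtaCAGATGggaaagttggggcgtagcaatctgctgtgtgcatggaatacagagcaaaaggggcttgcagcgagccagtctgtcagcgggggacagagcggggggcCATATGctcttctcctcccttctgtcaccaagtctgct

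The next 2 are the regions with the most E-boxes, which recur at short intervals across the window.
Between Tbc1d22a and Fam19a5, chr15:86962997-86963196, plus strand: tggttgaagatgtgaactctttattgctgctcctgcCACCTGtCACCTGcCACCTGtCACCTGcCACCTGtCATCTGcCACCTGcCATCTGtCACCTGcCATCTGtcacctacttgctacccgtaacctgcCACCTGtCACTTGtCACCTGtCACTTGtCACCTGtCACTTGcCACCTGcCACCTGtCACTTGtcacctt
Between Ufm1 and Trpc4, chr3:54064122-54064321, plus strand: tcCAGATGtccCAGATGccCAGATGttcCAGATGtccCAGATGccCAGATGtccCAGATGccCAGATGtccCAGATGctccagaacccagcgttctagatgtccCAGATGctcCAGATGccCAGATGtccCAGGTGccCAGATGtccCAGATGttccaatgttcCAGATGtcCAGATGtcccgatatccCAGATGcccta

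The last 2 have a gene of a cortical regulator as the closest gene on 1 side. The first is the intergenic region closest to Neurod2 itself, the gene that encodes the factor, and the second lies 774 kb from Id2, a gene for a helix-loop-helix protein without a DNA-binding part, with Rnf144a nearer at 439 kb, and holds 3 copies of CAGATG.
Between Neurod2 and Ppp1r1b, chr11:98334292-98334491, plus strand: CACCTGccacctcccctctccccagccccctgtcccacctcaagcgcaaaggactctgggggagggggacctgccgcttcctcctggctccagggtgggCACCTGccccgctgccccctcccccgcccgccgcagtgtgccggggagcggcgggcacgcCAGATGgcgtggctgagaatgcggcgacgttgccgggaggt
Between Id2 and Rnf144a, chr12:25871281-25871480, plus strand: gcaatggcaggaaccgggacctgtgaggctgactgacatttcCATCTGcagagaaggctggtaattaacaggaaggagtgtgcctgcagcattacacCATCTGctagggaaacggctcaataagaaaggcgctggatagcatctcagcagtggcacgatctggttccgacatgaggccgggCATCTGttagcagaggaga

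The location given by the table was checked against the GENCODE M21 annotation of the same build. Of the 744 midpoints, 617 (82.9%) lay outside every annotated gene and more than 1000 bp from any transcription start site (TSS), 90 lay in a gene and 37 within 1000 bp of a TSS. Many of the exceptions were noncoding genes, since 75 midpoints lay only in a noncoding gene, 61 of them in a lincRNA. With protein-coding genes alone, 699 were intergenic, 31 genic and 14 close to a TSS. The label therefore held for most members but not for all, and 42 midpoints lay inside the body of a GENCODE protein-coding gene. The distances to the 2 flanking genes are given for the 702 members outside such genes.

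Intergenic binding spread over a wide range of distances. The median distance from the midpoint to the closest TSS of any transcript of a protein-coding gene was 51.1 kb (quartiles 17.2 and 162 kb, n = 744). Within 100 kb of such a TSS lay 494 regions (66.4%), and the fullest bin, from 10 to 50 kb, held 254 (34.1%). Another 222 (29.8%) lay 100 to 500 kb away and 28 (3.76%) beyond 500 kb. Counted to the TSS of every annotated gene, noncoding ones included, the median was 17.8 kb. The class itself requires distance from genes, so these values describe the members and were not tested.

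**Figure D1:**
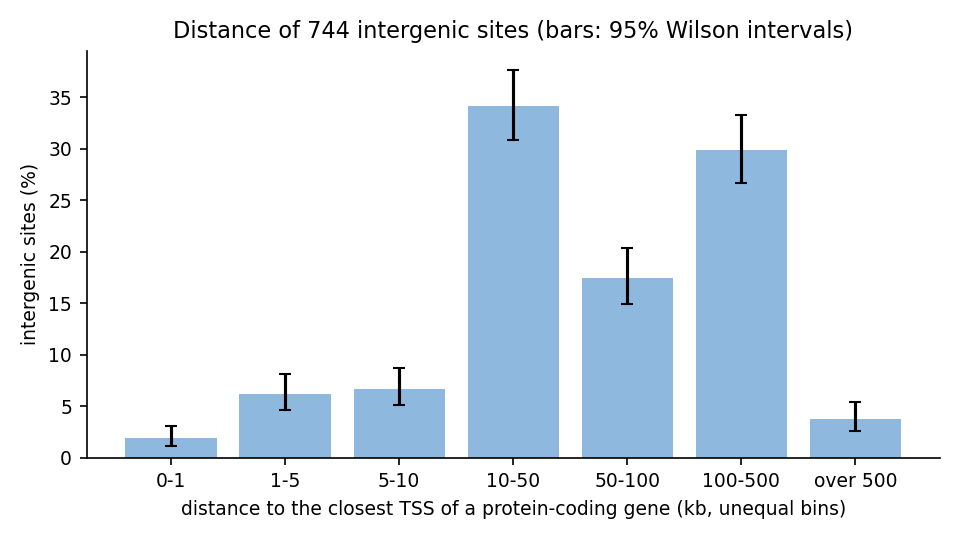
Share of the 744 intergenic regions (y axis, percent) by distance from the midpoint to the closest TSS of a protein-coding gene (x axis, kb, bins of unequal width). Bars are shares and error bars are 95% Wilson intervals, which cover counting error only; the bin from 10 to 50 kb held 34.1% and the bin beyond 500 kb held 3.76%.

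The extremes were different kinds of place. The members closest to a TSS lay 17 bp from a TSS of Btbd8 (scores of 164.77, 366.35 and 53.21 with antibodies 1, 2 and 3), 17 bp from Mical3 (74.13, 369.83 and 131.91) and 20 bp from Rgs6 (119.85, 255.26 and 89.38). All 3 midpoints fell inside the GENCODE gene, so they are intergenic by the deposited table only. Mical3 encodes an actin-oxidising enzyme and Rgs6 a regulator of G protein signalling. The most remote member lay 1711 kb from Flrt2, a gene for an adhesion protein that also acts in axon guidance, between Sel1l and Flrt2 at chr12:93981416-93981648. It scored 61.14, 66.46 and 65.38 and was among the weakest of all shared sites, at rank 2056 of 2071. The region at chr5:78993291-78993666, 1585 kb from Igfbp7 with the latrophilin gene Adgrl3 on its other side, scored 220.11, 458.32 and 240.1. The third, between Klhl29 and Apob, was the second strongest intergenic region of all, so remote members were found at both ends of the score range. Over the 744 members the Spearman correlation of distance with the deposited score was 0.0392.

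The edge of the nearer protein-coding gene lay at a median of 42.8 kb and that of the farther gene at 177.9 kb (n = 702). The gap between protein-coding genes that held a member had a median length of 242.6 kb, beside 16.9 kb over all 19057 such gaps, and a long gap offers more sequence to be bound. Counted per length, members were not most frequent in the longest gaps. There were 0.432 per Mb in gaps under 10 kb, 0.658 in gaps of 10 to 50 kb, 0.655 from 50 to 100 kb, 0.572 from 100 to 500 kb, 0.424 from 500 to 1000 kb and 0.185 in longer gaps. These lengths include sequence within 1000 bp of a TSS, which the class leaves out by rule and which weighs more in short gaps. Gaps over 1000 kb still held a member in 24.1% of cases. The member lay upstream of the nearer flanking TSS in 430 cases and downstream in 272. For a member downstream of a gene, the distance to the TSS includes the gene body. Choosing the nearer TSS therefore favours upstream cases, and a preference of binding for upstream positions was not tested. The flanking pair pointed the same way in 373 cases, away from the member in 176 and towards it in 153. In 10 cases the closest TSS belonged to neither flanking gene.

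Members had scores like those of shared sites elsewhere. The deposited score, for 739 of 744 members the sum of the MACS peak scores of the 3 antibodies within 0.01, had a median of 575 (quartiles 399 and 882, range 168 to 6366). The median was 570 in introns, 574 at promoters and 578 in exons. A MACS score is minus 10 times log10 of the p-value of a peak against the GFP library, and it depends on read depth, which the peak lists do not give. Of the 207 shared sites in the highest 10% by score, 75 were intergenic. With every antibody scoring 100 or more there were 360 members (48.4%), beside 46.1% of all shared sites, 48.6% of intron sites and 39.8% of promoter sites.

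The strongest member lay at chr10:84357828-84358757, 34.1 kb from a TSS of Nuak1, a kinase of the AMPK family that acts in axon branching. It scored 2316.25 with antibody 1, 2797.34 with antibody 2 and 1252.57 with antibody 3, and its summed score of 6366.16 was the second highest of all 2071 shared sites. The next, at chr12:6638635-6639508 in the desert between Klhl29 and the apolipoprotein gene Apob, scored 1803.17, 2142.67 and 1072.34 and lay 1263 kb from the closest protein-coding TSS. In both, antibody 2 was highest and antibody 3 lowest. The region at chr5:97300861-97301413 between Paqr3 and Naa11 scored 1616.06, 1774.45 and 774.81, at 91.2 kb from Naa11, which encodes a protein N-acetyltransferase. The region at chr10:19277057-19277607, 79.2 kb from Olig3, scored 1540.24, 1903.38 and 717.09. Olig3 encodes a helix-loop-helix factor of neural progenitors, and Tnfaip3 on the other side an inhibitor of NF-kB signalling. These 4 kept the same order of antibodies.

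The fifth strongest, at chr5:24656954-24657638, lay between Smarcd3, a subunit of the BAF chromatin remodelling complex, and Nub1, and scored 1285.58, 1923.58 and 867.26. The sixth, at chr3:88225649-88226581, lay between Rhbg, an ammonium transporter, and Mef2d, a MADS-box factor of neurons and muscle, and inside the noncoding gene Gm3764. It scored 1559.04, 1603.52 and 807.18. At chr5:133889566-133890271, between Auts2, a gene of nuclear regulation linked to neurodevelopmental disorders, and Castor2, the scores were 1532.22, 1502.18 and 794.91. That region and the one at chr14:114959599-114960225, 132 kb from the glypican gene Gpc5 (1477.98, 1178.97 and 785.69), were the members among the 12 strongest in which antibody 1 was highest.

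The other 4 of the 12 strongest had antibody 2 highest. The region at chr14:24578205-24579233 between Rps24, a ribosomal protein gene, and Zmiz1, a transcriptional coactivator, scored 1112.83, 1535.94 and 780.74. The region at chr10:74933185-74934178 between the protocadherin gene Pcdh15 and Rsph14 scored 1287.42, 1549.39 and 539.18, and its closest TSS, at 33.5 kb, was that of Gnaz, a G protein subunit of the brain. The region at chr4:13146691-13147307 between Triqk and the corepressor gene Runx1t1 scored 1264.78, 1503.34 and 551.82. The region at chr6:99968859-99969499 between Prok2, which encodes a secreted neuropeptide-like signal, and Rybp, a Polycomb component, scored 1040.3, 1482.26 and 562.02. Across the 12, antibody 3 was always the lowest.

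**Figure D2:**
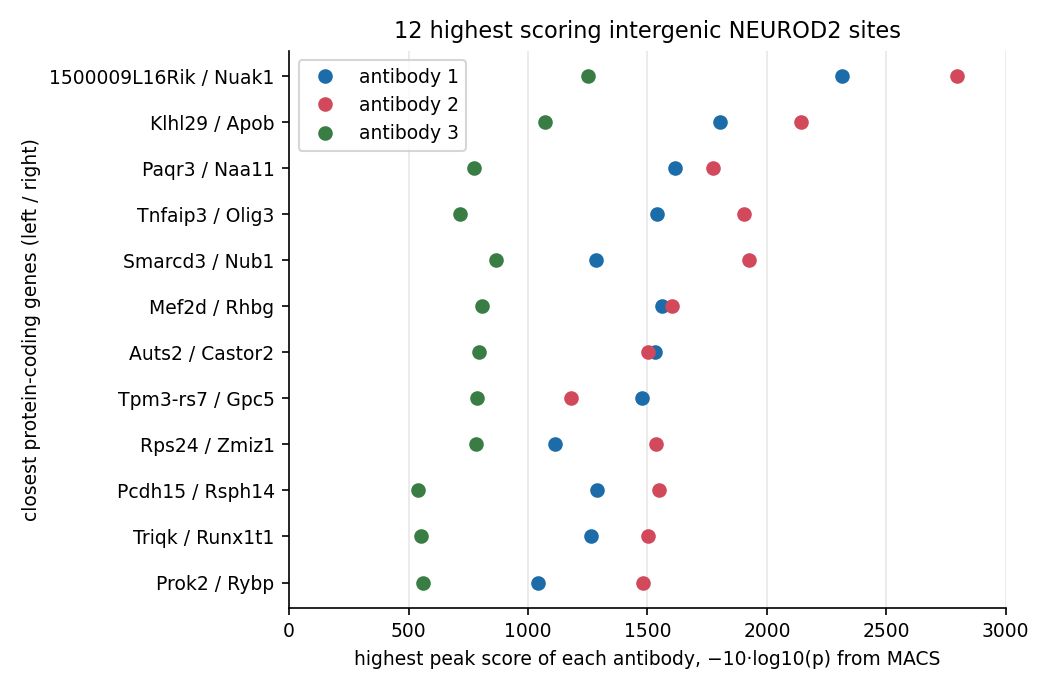
Highest peak score of each antibody (x axis, linear, minus 10 times log10 of the MACS p-value) at the 12 intergenic regions with the highest deposited scores, named by the closest protein-coding genes on both sides (y axis). Each point is 1 library; antibody 3 lies lowest in all 12 and antibody 1 lies above antibody 2 only between Auts2 and Castor2 and between Tpm3-rs7 and Gpc5.

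When midpoints up to 100 kb apart were joined in a chain, 179 members (24.1%) fell into 78 loci, namely 61 pairs, 11 triples and 6 groups of 4, and 565 stood alone. Among the 360 members that scored 100 or more with every antibody, 63 fell into such loci. Among all shared sites, which lie more densely, 36.1% had another shared site within 100 kb, and for 259 members (34.8%) a shared site of any location was joined. The median score was 641 for members in loci with several intergenic regions and 556 for the others, beside 603 and 555 when all shared sites were grouped in the same way.

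The 6 loci with 4 members differed in span and in how evenly they were bound. The locus of Neurod2 spanned 46.7 kb, with regions 41.9, 12.3, 8.31 and 4.74 kb from its TSS. Antibodies 1, 2 and 3 gave 103.72, 202.65 and 70.5 at the most distant, then 264.81, 333.99 and 145.65, then 107.82, 302.12 and 74.84, and 159.54, 589.38 and 119.26 at the closest. Antibody 2 was highest at all 4, and the deposited scores of 377, 744, 485 and 940 stayed within a narrow range beside those of the other loci. Cdk12, a kinase of transcription elongation, lies on the far side, and Ppp1r1b, which encodes DARPP-32 of dopamine signalling, follows the closest region.

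In the locus of Sik1, a salt-inducible kinase gene, and Cryaa, a lens crystallin gene, the 4 regions spanned 116.4 kb with scores of 579, 549, 2723 and 2421. The strong pair lay 84.4 and 74.2 kb from a TSS of Sik1, and the 2 weaker ones near U2af1 and Cryaa. Between Prok2 and Rybp, 1 region of 3085 stood among 3 of 468, 478 and 622 over 107 kb. Between Lrpap1, a chaperone gene of lipoprotein receptors, and Adra2c, an adrenergic receptor gene, the scores were 2885, 436, 851 and 375 over 73.5 kb. In both loci 1 region held most of the summed score. The regions between Kif26a and A530016L24Rik were packed within 22.2 kb, at 557, 1975, 1096 and 566. Those between Cyp7b1, an oxysterol hydroxylase gene, and Armc1 spanned 90.1 kb at 1738, 375, 251 and 986, and the closest of them to any protein-coding TSS lay 382 kb away.

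**Figure D3:**
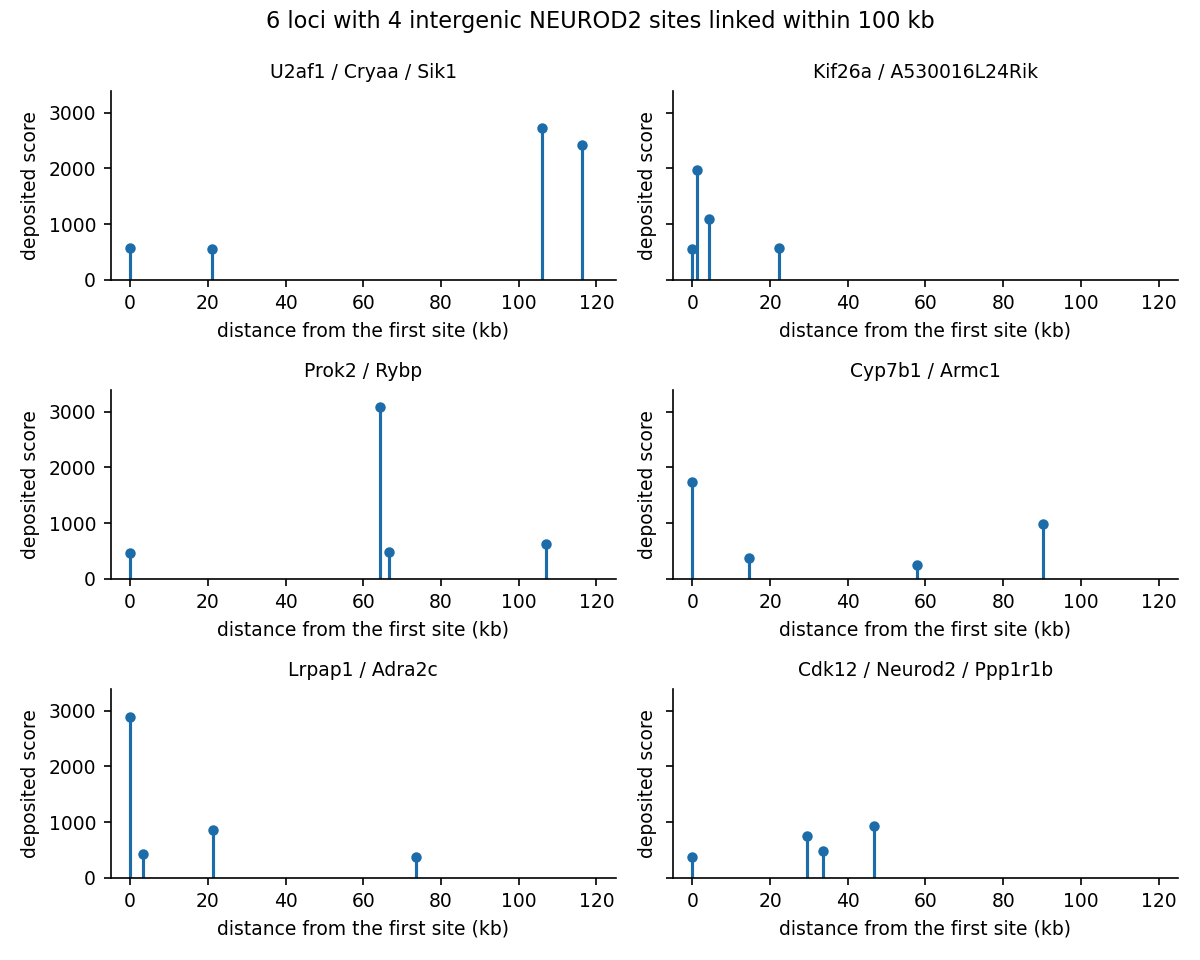
Deposited score (y axis) of each region in the 6 loci with 4 intergenic regions, against distance from the first region of the locus (x axis, kb). The score was the sum of the 3 antibodies' MACS scores for 739 of 744 members. Each stem is 1 region; a single region dominates between Prok2 and Rybp and between Lrpap1 and Adra2c, and the 4 regions at Neurod2 lie between 377 and 940.

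Chosen after its values were seen, Sox11 was the protein-coding gene with the most members beside it. It encodes an SRY-box factor of newborn neurons, and it was the closest gene on 1 side of 9 members, with scores from 365 to 2157 and at 14.7 to 662 kb from its TSS. Next came Prok2 and Rybp with 7 each. Of the genes beside a member, 904 had 1 member, 155 had 2 and 75 had more.

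Genes of cortical neurons were counted among the closest protein-coding genes on both sides of all 744 members. Of all 21924 protein-coding genes, 1134 (5.17%) were such a neighbour. Of 49 transcription factor genes of cortical projection neurons, 21 were (42.9%), with 40 members beside them. They included Neurod2 and Neurod6 of the factor's own family, Tbr1, which marks deep-layer projection neurons, Cux2 of the upper layers, Pou3f2, Sox5, Emx1, Zbtb18, Mef2c and Zeb2. Distances from members to the TSSs of these named genes ran from 3.19 kb at Pou3f2 to 1422 kb at Sox5. Another gene was nearer in some cases, among them Etnk1 beside Sox5. The listed genes lay in long gaps, with a median of 550.1 kb of sequence beside them against 35.0 kb for all protein-coding genes, and a longer gap holds more members; its part in the count was not tested. With only the nearer of both neighbours counted, 11 remained, beside 626 of all protein-coding genes.

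The strongest member of this group lay between Id2 and Rnf144a, 439 kb from the closest TSS, and scored 690.18, 1145.11 and 557.75 with antibodies 1, 2 and 3. The region between Dand5 and Nfix, a nuclear factor I gene, scored 560.46, 1267.87 and 429.67 at 14.8 kb from Nfix, with Dand5 nearer. The region between Sox11 and Cmpk2 scored 921.96, 905.57 and 329.86. Antibodies 1 and 2 were thus near equal there, while antibody 2 was highest at the Id2 and Nfix regions. The region 128 kb from Zbtb18, which encodes a transcriptional repressor needed for cortical neuron differentiation, scored 736.61, 802.76 and 313.17. The median score over the 40 members was 580, beside 575 over all members.

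Of 47 axon guidance genes, 9 (19.1%) were neighbours of 12 members with a median score of 930, the highest of the lists. All 47 listed genes, neighbours or not, had a median of 288.1 kb of sequence beside them. The region near Slc24a5 with Sema6d, a transmembrane semaphorin gene, on the other side scored 902.05, 1231.18 and 490.4. That between the Eph receptor gene Epha3 and Pros1 scored 910.09, 1104.19 and 484.69. Sema6d lay 942 kb and Epha3 748 kb from these regions, and in both cases the other neighbour was closer. Beside the plexin genes, which encode semaphorin receptors, the region 457 kb from Plxna2 scored 707.79, 1033.53 and 260.52. The region 114 kb from Plxna4, with a TSS of Chchd3 nearer at 101 kb, scored 408.57, 575.25 and 218.12. With only the nearer neighbour, 2 of the 9 genes remained.

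Of 65 genes of cell adhesion and synapse organisation, 14 (21.5%) were neighbours of 19 members, with a median score of 504. The 65 listed genes had the longest gaps of the lists, with a median of 1557 kb. Cdh4, which encodes R-cadherin, had 2 members beside it, with scores of 773.37, 995.35 and 275.43 and of 331.34, 648.6 and 135.88. The latter lay 50.4 kb from its TSS. The region 84.9 kb from a TSS of the teneurin gene Tenm3 scored 506.11, 531.55 and 235.18, and that between the adhesion genes Chl1 and Cntn6 scored 508.39, 369.84 and 185.7. The last was the member of these 4 in which antibody 1 was highest. With the nearer neighbour alone, 7 genes remained.

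Of 53 genes of ion channels and glutamate receptors, 5 (9.43%) were neighbours of 9 members, with a median score of 540, and 4 were with the nearer neighbour alone. The median gap beside all 53 listed genes was 336.3 kb. Between Grin2b, an NMDA receptor subunit gene, and Emp1, at 732 kb from Grin2b and 74.0 kb from Emp1, the scores were 487.79, 803.07 and 225.76. Between the kainate receptor gene Grik3 and Csf3r they were 431.07, 499.6 and 232.92, and between Grik3 and Zc3h12a 188.15, 361.61 and 84.88. Between the kainate receptor gene Grik2, at 3805 kb, and Hace1, with a TSS at 307 kb, they were 381.1, 498.57 and 148.45. All 4 had antibody 2 highest.

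Of 23 genes of inhibitory interneurons, cells of another lineage in the cortex, 3 (13.0%) were neighbours of 4 members, with a median score of 443. With the nearer neighbour alone, 1 gene remained. The median gap beside all 23 listed genes was 156.1 kb. Beside Dlx2, a homeobox gene of interneuron progenitors, the scores were 249.5, 568.4 and 242.32 at the region nearer to Itga6 and 130.14, 97.12 and 77.02 at the other. Between Sox6 and Insc they were 87.79, 359.51 and 106.44. Between the neuropeptide gene Npy and Stk31 they were 138.45, 126.3 and 67.34. The members beside Dlx2 lay 82.8 and 106 kb from its TSS, and that beside Npy lay 233 kb away. The paper chose Dlx2 and Npy as nontarget genes, and quantitative PCR showed no NEUROD2 enrichment at the sequences tested there. No gene of the 20 listed for glia and blood vessels was a neighbour, with a median gap of 55.3 kb. Bulk chromatin does not tell whether few or many cells were bound at a region.

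Some neighbours also held a shared site in their own body or promoter. Of the 1074 protein-coding genes flanking the 702 members outside genes, 133 (12.4%) had a shared site in an annotated gene location, beside 4.68% of all protein-coding genes. These 133 genes flanked 186 members. Gene lengths were not compared, and the part of length in this difference was not tested.

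The centre of the members was rich in E-boxes. Measured from the centre of each antibody's own peak, 200 bp held 2.89, 2.79 and 2.83 E-boxes per region with antibodies 1, 2 and 3, a mean of 2.84 ± 0.0499 (SD, n = 3 antibodies), against 1.14 in windows of the same size 2000 bp from the region's edges. The ratio was 2.53, 2.45 and 2.48, a mean of 2.48 ± 0.0437 (SD, n = 3). A two-sided exact sign-flip permutation test over the 3 antibodies gave p = 0.25, the smallest that 3 antibodies allow, so the design cannot pass 0.05. All 200 bp tiles of intergenic sequence, 6899800 in number, held 1.06 on average. The ratio at intron sites was 2.43 and at promoters 1.48. Members held 1.09, 1.28 and 1.07 more E-boxes per centre than promoter sites with the 3 antibodies, a mean of 1.15 ± 0.115 (SD, n = 3), and 0.0639, 0.0466 and 0.00508 more than intron sites. For both differences the exact sign-flip permutation p was 0.25. The 3 values of each comparison come from overlapping windows of the same regions in 1 reference genome, so their SD reflects where each antibody's peak was centred and not the variation between sites. Promoter centres were also richer in G and C, with a median of 68.0% against 53.5% in members and 53.5% in intron sites; its part in the difference was not tested.

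At the midpoint of the deposited region, 708 members (95.2%, interval 93.4 to 96.5%) held at least 1 E-box in 200 bp, beside 89.3% of all shared sites, 65.9% of the members' own flanks and 65.1% of all intergenic tiles. The 2 leading forms carried most of the surplus. CAGATG was present in 485 members (65.2%, interval 61.7 to 68.5%), beside 54.7% of all shared sites, 15.8% of flanks and 15.0% of tiles. CAGCTG was present in 320 (43.0%, interval 39.5 to 46.6%), beside 42.1% of all shared sites, 7.46% of flanks and 6.32% of tiles. Per length, CAGATG was 5.45 times and CAGCTG 7.65 times as frequent in the centre as in the flanks. At least 1 of both forms was found in 630 members (84.7%, interval 81.9 to 87.1%), beside 77.2% of all shared sites, 81.4% of intron sites, 60.2% of promoter sites and 21.9% of flanks.

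The share of sites with CAGATG differed more between members and promoter sites than that with CAGCTG. The form CAGATG was in 28.5% of promoter sites (interval 24.8 to 32.6%) and CAGCTG in 41.2% (interval 37.0 to 45.5%), while intron sites had 63.3% and 40.2%. By occurrence against their own flanks, CAGATG was 1.91 times and CAGCTG 5.15 times as frequent at promoter sites, where 16.8% and 10.3% of flanks held them. The intervals cover counting error over sites only. Among the remaining 8 forms, CACCTG (22.6% of members against 14.2% of flanks, 2.52 times by occurrence, and 1.60 times without the 20 members that hold 8 or more E-boxes, a comparison chosen after seeing the data) and CATATG (12.8% against 6.18%, 2.40 times) were also more frequent in the centre, and CACGTG less so (3.49% against 2.55%, 1.49 times). The other 5 forms stayed close to the flanks by occurrence, with a ratio of 1.07 for the form CACATG, a ratio of 1.16 for the form CAACTG, a ratio of 0.953 for the form CAAGTG, a ratio of 0.843 for the form CAAATG and a ratio of 0.837 for the form CAATTG.

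**Figure D4:**
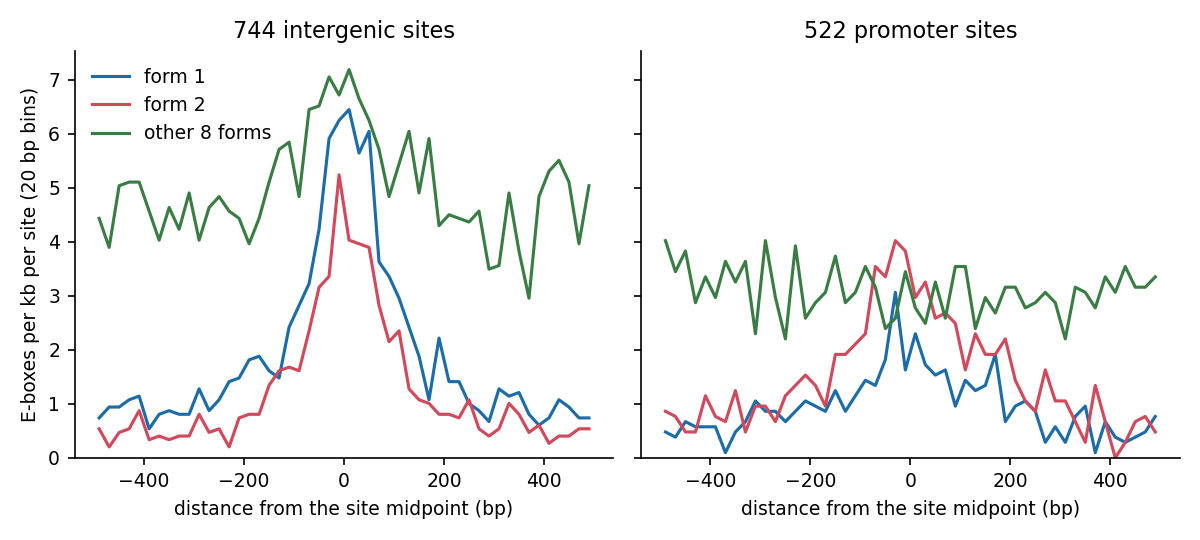
E-boxes per kb per site (y axis) in 20 bp bins by distance from the site midpoint (x axis, bp) at 744 intergenic and 522 promoter sites. Form 1 is CAGATG, form 2 is CAGCTG, and the third line sums the other 8 forms; at intergenic sites form 1 peaks at 6.45 and form 2 at 5.24 per kb, against 3.07 and 4.02 at promoters.

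The leading forms were joined in some members and separate in others. Both were present in 175 members (23.5%), CAGATG without CAGCTG in 310 (41.7%), CAGCTG without CAGATG in 145 (19.5%), only other forms in 78 (10.5%) and no E-box in 36 (4.84%). Their median scores were 582, 585, 559, 606 and 518 in that order, beside 575 over all members, and their differences were not tested. The number of E-boxes ran from 0 in 36 members over 1 in 119, 2 in 228, 3 in 182 and 4 in 97 to 8 or more in 20, and its Spearman correlation with the score was 0.0136 over the 744 members, which share 3 libraries. Region length had 0.654, and the peak caller sets both values. The median score of the 20 members with 8 or more E-boxes was 758, beside 574 over the other members, a difference that was not tested.

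The base after CAGATG was also uneven. Read in the orientation that gives CAGATG, the next base was G in 453 of 698 copies in the centre (64.9%, interval 61.3 to 68.4%) and in 74 of 255 copies in the flanks (29.0%, interval 23.8 to 34.9%). The most frequent 8-base words were GCAGATGG (22.8% of copies against 5.49% in flanks), ACAGATGG (22.6% against 11.8%) and CCAGATGG (17.5% against 7.06%), while TCAGATGG made up 2.01% against 4.71%. Around CAGCTG, CCAGCTGC was the most frequent word, at 22.1% of 476 copies against 16.4% of 122 in flanks, followed by ACAGCTGC at 17.9% against 11.5%. The copy in the strongest member, near Nuak1, is CCAGATGG, and that near Olig3 is ACAGATGG.

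In 20 members (2.69%, interval 1.75 to 4.12%) the central 200 bp held 8 or more E-boxes, beside 2.22% of all shared sites and 1 of 1488 flank windows. In each of the 20, the leading form supplied at least 50% of the copies. CACCTG led in 12, CAGCTG in 7 and CAGATG in 1. The array between Tbc1d22a and Fam19a5 held 19, of which 12 were CACCTG, and scored 422.81, 475.67 and 210.76. That between Ufm1 and Trpc4, a cation channel gene, held 18, of which 17 were CAGATG, and scored 304.7, 278.28 and 120.48. That between Tulp1 and Fkbp5, a gene for a glucocorticoid receptor co-chaperone, held 16, of which 15 were CAGCTG, and scored 806.58, 758.24 and 528.1. Antibody 1 exceeded antibody 2 in 12 of the 20 arrays (60%) and in 115 of the other 724 members (15.9%), and in 24 of the 46 arrays among all shared sites (52.2%). The median of the highest antibody 1 score was 318 in arrays and 180 elsewhere, for antibody 2 it was 275 and 291, and for antibody 3 it was 124 and 102. No repeat-masked base lay in the centre of 11 of the arrays, and 3 were masked over more than 50% of it. The number of units in the BALB/c genome was not measured.

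The core of the CTCF motif, read by an architectural protein of chromatin, was found in the centre of 21 members (2.82%, interval 1.85 to 4.28%), beside 1.69% of all shared sites, 3 of 1488 flank windows (0.202%), 0.0789% of intergenic tiles, 0.850% of intron sites and 1.15% of promoter sites. The core can contain an E-box, and 13 of the 22 copies did, which left 9 members (1.21%) with a core free of one. The scores of the 21 had a median of 527 and lay between 292 and 3085, and the shares of the 3 antibodies had medians of 25.8, 53.8 and 18.6%. The strongest, between Prok2 and Rybp, is also among the 12 strongest members, and another lies 1.56 kb from a TSS next to Slc17a7, the vesicular glutamate transporter gene of cortical excitatory neurons (323.32, 606.46 and 157.64). The latter was named after its values were seen. Whether CTCF was bound was not measured.

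The scores of the 3 antibodies share the GFP library as control and are given side by side. Antibody 2 had the highest score in 609 members (81.9%, beside 84.9% of all shared sites), antibody 1 in 126 (16.9%, beside 13.9%) and antibody 3 in 9, and antibody 3 was lowest in 638. The median highest scores were 182 (range 50.3 to 2316), 290 (range 50.2 to 2797) and 102 (range 50.1 to 1253). The deposited peak lists held 5202, 11196 and 3164 peaks, so the scores are not on a common scale between antibodies. The share of the summed score had medians of 33.2% for antibody 1 (quartiles 27.1 and 38.8%), 47.6% for antibody 2 (41.8 and 53.8%) and 18.7% for antibody 3 (15.3 and 22.8%).

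The medians were close to those of intron sites (33.8, 47.2 and 18.7%) and apart from those of promoter sites (23.7, 56.6 and 19.3%). With antibody 1 the geometric mean of the highest score was 1.40 times as high in members as at promoters, with antibody 2 it was 0.871 times and with antibody 3 1.02 times as high. The antibodies did not point the same way, and the mean log10 difference of 0.0315 ± 0.105 (SD, n = 3) was smaller than its spread, with an exact two-sided sign-flip permutation p of 0.75. Against intron sites the ratios were 0.940, 0.978 and 0.954 (exact sign-flip permutation p = 0.25), and against all other shared sites 1.11, 0.935 and 0.982, a mean log10 difference of 0.00319 ± 0.0389 (SD, n = 3, exact sign-flip permutation p = 1). By rank among each antibody's own peaks, whose lists differ in length, the median member stood at 1038, 1255 and 1061, and the median promoter site at 1658.5, 947.5 and 1116.5.

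**Figure D5:**
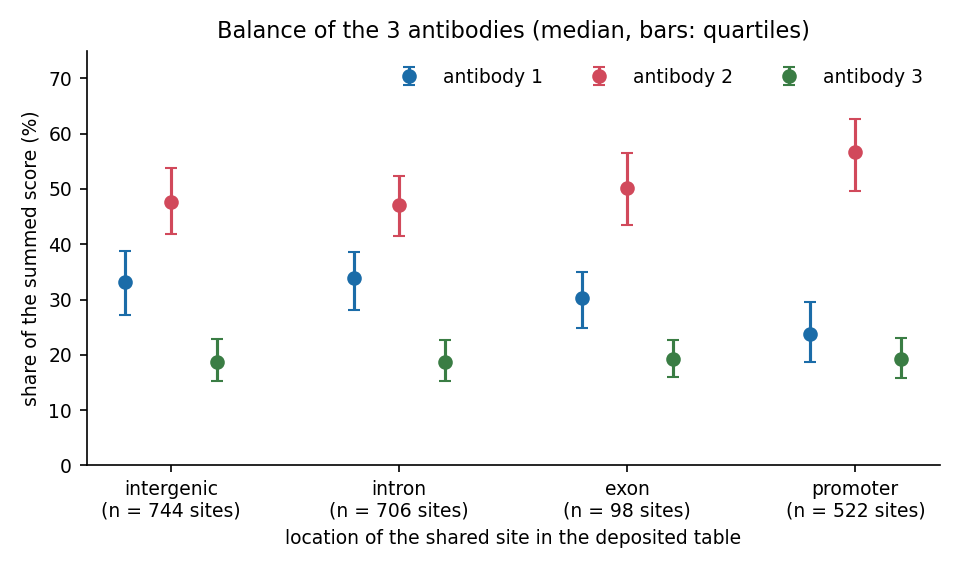
Share of the summed score given by each antibody (y axis, percent) at shared sites of each location (x axis, with the number of sites). Points are medians over sites and bars run from the first to the third quartile; antibody 1 holds 33.2% at intergenic and 23.7% at promoter sites, and antibody 3 stays between 18.7 and 19.3%.

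The most one-sided members were of low or middling score. Antibody 1 had its highest share, 59.2%, between Ggta1 and Dab2ip (352.26, 185.59 and 57.51), followed by 58.1% between the small GTPase gene Rnd2 and Brca1 (167.25, 57.99 and 62.63) and 56.4% between Csnk1e and Kcnj4 (174.67, 80.62 and 54.27). The last had 100% of its central 200 bp masked as repeats and held no E-box. Antibody 2 had 70.5% between Slc24a2 and Mllt3 (57.85, 275.44 and 57.57), 68.8% between Ercc6l2 and Hsd17b3 (192.29, 564.29 and 64.16) and 68.6% between Ubash3b and the sorting receptor gene Sorl1 (101.3, 544.21 and 87.73). Shares are of the scores summed over all peaks of an antibody in a region, while the scores in brackets are those of its highest peak. At the region beside Sorl1 antibody 1 had more than 1 peak, with a sum of 160.96. Antibody 3 had 41.6% between Tfec and Tes (53.23, 101.43 and 110.19), 40.7% between Ran and Adgrd1 (124.42, 129.65 and 174.69) and 40.2% between Tex29 and A230072I06Rik (52.78, 68.77 and 81.61). The region beside Ran was masked over 94% of its centre and also held no E-box. Several of these values lay close to the lowest scores the peak lists report, 50.01, 50 and 50.03.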

How the data were processed

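ChIP-Seq libraries of cerebral cortex at postnatal day 0 were made with 3 NEUROD2 antibodies, 1 library each, and 1 GFP antibody as control. The authors aligned single-end reads to mm10 with Bowtie, then used MACS to call peaks in each antibody's library against the GFP reads, and they kept regions with overlapping peaks of all 3. The deposited score of a peak is minus 10 times log10 of its MACS p-value. The deposited score of a shared region equalled the sum over its peaks for 2051 of 2071 shared sites and for 739 of 744 members. The peak lists give no read counts, so depth is unknown from the files used here (reads were not used), and scores are not scaled between antibodies. Locations (promoter within 1000 bp of a TSS, exon, intron, intergenic) are those of the deposited table.

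Members were the rows labelled intergenic. Peaks were assigned to a region by an overlap of at least 1 bp. Midpoints were compared with GENCODE M21 and the RefSeq GRCm38.p6 genome. E-boxes (CANNTG, 10 forms, both strands), TGANTCA, ATTTGCAT, AGGTGTGA, the palindromic nuclear factor I site and the CTCF core were counted in the central 200 bp and in windows 2000 bp from both edges. Regions named were the 12 highest scoring members, the 3 closest to and 3 farthest from a TSS, the 3 with the highest share of each antibody, the 6 largest loci, the 4 highest scoring members beside each of 6 gene lists and the 3 with the most E-boxes. Members and lists were chosen with earlier results of these data known. Differences were measured with each antibody and tested by an exact sign-flip permutation. Shares carry 95% Wilson intervals. Counting was tested on simulated data. Python 3.11.15, numpy 2.4.6, pandas 2.3.3 and scipy 1.17.1 were used.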

Additional observations from a re-analysis of the deposited data

How the results depend on the processing

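The ratio of E-boxes in the centre to the flanks stayed between 1.95 and 2.84 with central windows of 400 and 100 bp, farther flanks and only regions scoring at least 100 with every antibody, and was 2.27 without the 20 arrays, an alternative chosen after seeing the data, as was the share with CAGCTG or CAGATG without them (84.8%). Without the arrays CACCTG was 1.60 times as frequent as in the flanks, in place of 2.52, and CAGCTG 6.57 times. Leaving out each antibody gave 2.46 to 2.50. The share with CAGCTG or CAGATG was 64.8% in the central 100 bp and 93.1% in 400 bp, and 85.0% in high scoring regions. Requiring 100 or more with every antibody left 360 regions, of which 63 shared a locus. The number of intergenic shared regions was 619 by GENCODE with all transcripts and 762 with protein-coding genes only. With 2 antibodies, classed by GENCODE, it was 638 to 1274, the highest without antibody 3, which has the fewest peaks. The median distance was 60.3 kb to gene-model ends and 17.8 kb to the TSS of every annotated gene. With neighbours within 50 or 200 kb, 136 or 248 regions shared a locus. The log10 score difference from other shared sites turned to -0.00193 by ranks and ran from -0.0184 to 0.0193 when an antibody was left out, negative without antibody 1, so it has no stable direction. With the nearer neighbour alone the lists gave 11 projection neuron factors, 2 axon guidance, 7 adhesion and 1 interneuron gene. The cause of these moves was not tested, beyond the smaller sets of regions or genes that the alternatives leave. No paired analysis was possible because only the NEUROD2 group has more than 1 sample, and the other groups share at most 1 replicate number with it, while differences between kinds of site were taken within each antibody. Read depth is not known from the peak lists, and 3 antibodies cannot give a p under 0.25.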

Other observations

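Motifs of other factors were searched in the same windows, on both strands, and were found in few members. TGANTCA, read by AP-1 factors, was in 36 members (4.84%) against 6.12% of flanks and 5.98% of tiles. ATTTGCAT, read by POU factors, was in 9 (1.21%) against 1.55% and 1.96%. AGGTGTGA, read by T-box factors such as TBR1, was in 10 (1.34%, interval 0.732 to 2.46%) against 1.01% and 0.716%. By occurrence it was 3.07 times as frequent as in the flanks, with 23 copies, of which 8 lay in 1 member and 6 in another, both arrays of 8 or more E-boxes. The full palindromic site of nuclear factor I was in 0 of 744. The absence of these letters says nothing of the factors.

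In 26 members (3.49%), beside 2.41% of all shared sites and 2.55% of intron sites, repeat-masked bases made up over 50% of the central 200 bp, and 8 of these (30.8%) held no E-box there, beside 3.90% of the other members. Of the 36 members without an E-box in the centre, some held E-boxes elsewhere in the region. The median score was 541 in masked and 576 in other members. By chromosome the density ran from 0.391 per Mb on chromosome 12 and 0.377 on 11 down to 0.0651 on 19 (4 members) and 0.0409 on X (7 members), and none lay on Y. All shared sites had 0.674 per Mb on chromosome 12, 1.39 on 11, their highest, and 0.0877 on X (15 sites), their lowest apart from Y. Chromosome 19 held 44 shared sites of any location, or 0.716 per Mb.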
